A study of Homo sapiens with 4 samples.

Results

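The zinc finger genes of chromosome 19 were followed on 4 Affymetrix arrays of SW620, an established human colon cancer line that was grown from a metastasis. They were chosen as the genes whose symbol is ZNF followed by a number and which lie on human chromosome 19. There were 208 such genes among the 19775 genes measured, and the brightest probe set over the 4 arrays stood for each gene. Of the 208, 207 are protein-coding and 1 is a transcribed pseudogene in RefSeq. The study compared cells that carry the surface protein CD133 with cells that lack it. The labels describe a sort of SW620 with a CD133 isolation kit, the growth of clones from single plated cells, and a second CD133 sort of the grown clones just before total RNA was taken. The CD133+ group is 1 clone (CPC1) on 2 arrays and the CD133- group is 1 clone (CNC1) on 2 arrays. Both were grown in the same serum-containing medium, and the labels name no treatment other than the sorting. CD133 status and clone therefore cannot be told apart, and since no label states that replicate arrays stand for separate cultures, every p-value here measures the spread between arrays alone, which may be technical. In such bulk RNA, fewer cells of a type and less RNA per cell cannot be told apart.

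Most ZNF genes of chromosome 19 encode proteins with a row of C2H2 zinc fingers, each finger a short loop that holds a zinc ion and touches a few bases of DNA. Many carry a KRAB domain, which binds TRIM28, and TRIM28 brings in the histone methyltransferase SETDB1 and HP1 proteins, so that the bound DNA is packed into repressed chromatin. Their best known targets are transposable elements, and the genes arose by repeated local duplication, which is why they sit in long clusters of neighbours. In colon cancer cells as in other cells they are mostly transcribed at low levels.

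The sorted antigen checked the labels. PROM1, the gene of CD133, gave log2 signals of 8.46 and 8.73 in CD133+ cells, and of 3.31 and 3.35 in CD133- cells (difference 5.26, limma adjusted p = 4.22e-05). Of 10 colon epithelial markers 9 passed the filter on level and none was called, with KRT18 at a mean log2 signal of 14.09, while KRT20 was at 3.42. The summed log2 signal of these 10 markers ran from 93.68 to 94.77 over the 4 arrays, but single markers moved in both directions. At a limma unadjusted p under 0.05, 3 were lower in CD133+ cells (EPCAM -0.26, KRT8 -0.17 and VIL1 -0.35) and 1 higher (CDH1 0.26). Over all genes 20.6% passed that threshold. The leukocyte markers (4 measured) summed to 18.00 to 18.21, the 5 fibroblast markers to 25.39 to 25.98 and the 3 endothelial markers to 12.84 to 14.34, with none called. CD133- replicate 1 stood apart from the other arrays with the highest upper quartile of deposited signals (6.90, against 6.60 to 6.71). CD133+ replicate 2 stood apart in ACTB, where the 3' probe set exceeded the 5' one by 1.92 on the log2 scale, against 0.71 to 1.18 elsewhere. This excess reads how intact the RNA was. In GAPDH it ranged only from 0.017 to 0.097, and CD133+ replicate 2, at 0.090, lay inside that range. That array was therefore singled out by ACTB and not by GAPDH.

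The zinc finger genes were dim on these arrays. The median log2 signal of all 208 was 4.50, against 5.80 over all genes, and 58 of them had a mean above 6 and 7 a mean above 8. Signals of different probe sets are not amounts of RNA that can be set against each other, so these figures describe only how far the probe sets lie above the floor of the array. Genes with a mean log2 signal below 3.75, the lowest 20% of all genes, were left out of the test. This left 150 of the 208 zinc finger genes, or 72.1%, and put 58 out. The nearest to the threshold were ZNF625 (3.77) and ZNF649 (3.79) inside it and ZNF850 (3.75) and ZNF665 (3.73) outside it. The 58 include ZNF43, ZNF85, ZNF90 and ZNF208, and none of them was tested. The arrays of the clones did not overlap in 21 of the 58 (36.2%), against 34.5% of all genes below the filter.

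In CD133+ cells 1 of the 150 tested zinc finger genes, ZNF529, was lower at a limma adjusted p under 0.05 and none was higher. The background was 3.65% of all 15820 genes called, 2.34% lower and 1.31% higher. The share of higher among all calls was 35.9%, and it was 21.1% in the values as deposited and 11.3% with each array centred on its median. At an unadjusted p under 0.05, 15 zinc finger genes were lower (background 9.83%) and 9 higher (background 10.8%), 16.0% of those tested against 20.6% of all genes. In 7 tested members the mean of 1 clone lay below the level filter, so that they entered the test through the other clone and had to differ. ZNF566 and ZNF649 among the lower and ZNF264 among the higher genes are such members, and 13 lower and 8 higher genes are left without them. The arrays of the clones did not overlap in 39 genes lower in CD133+ cells (26.0%, background 21.2%) and 26 higher (17.3%, background 30.4%), and in the other 85 they overlapped, while 51.6% of all genes did not overlap. The 39 include ZNF491, ZNF566 and ZNF649, and the 26 include ZNF264 and ZNF599. These entered the test only through the clone where they are high. The median log2 difference, CD133+ minus CD133-, was -0.038 over the zinc finger genes and 0.058 over all genes, and 55.3% of the zinc finger genes had a negative sign, against 41.5% of all genes. The quartiles of the zinc finger genes were -0.27 and 0.15, and 12 differed by at least 1.5-fold. Among the 184 tested ZNF genes of other chromosomes the median was -0.023, with 3 called higher (ZNF32, ZNF398 and ZNF664) and none lower, and 1 higher and 1 lower in the values as deposited or centred.

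For this family, arrays of different clones differed more than replicate arrays did in only some pairs. Over the 150 genes the median size of the log2 difference between 2 arrays was 0.208 for the CD133+ replicates and 0.224 for the CD133- replicates. Pairs of different clones that used CD133- replicate 2 gave 0.208 and 0.194, and pairs that used CD133- replicate 1 gave 0.291 and 0.358. Thus both pairs with CD133- replicate 2 were no larger than the pair of CD133- replicates, and both pairs with CD133- replicate 1 were larger than either replicate pair. Over all genes the replicate pairs gave 0.175 and 0.170 and the pairs of different clones 0.197 to 0.296, all of them larger than the replicate pairs. The other genes of chromosome 19 were mixed like the family. Their replicate pairs gave 0.1958 and 0.1961, pairs with CD133- replicate 2 0.190 and 0.209, and pairs with CD133- replicate 1 0.258 and 0.347. For ZNF genes of other chromosomes the replicate pairs gave 0.172 and 0.184, and all pairs of different clones were larger (0.203 to 0.331). A difference of at least 2-fold between CD133- replicate 1 and a CD133+ array was seen in 5 zinc finger genes for each CD133+ array, and between CD133- replicate 2 and a CD133+ array in 1 and 0.

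**Figure D1:**
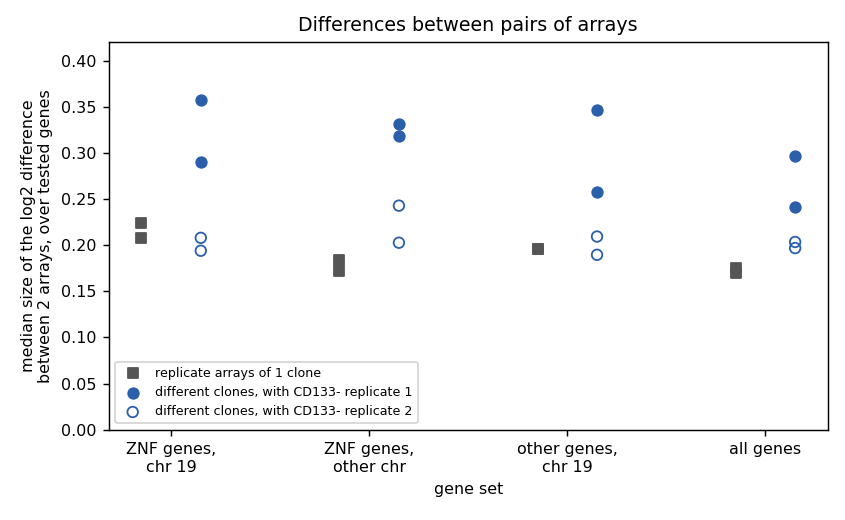
Median size of the log2 difference between 2 arrays (y axis) over the tested genes of each set (x axis), with squares for replicate arrays of a clone and circles for arrays of different clones, filled where CD133- replicate 1 is in the pair. For the zinc finger genes of chromosome 19 the open circles (0.208 and 0.194) lie no higher than the upper square (0.224, the lower being 0.208), and the filled circles lie at 0.291 and 0.358.

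The other genes of chromosome 19 had a different median. The 983 tested genes of chromosome 19 that are not ZNF-number genes had a median log2 difference of 0.17, and 24.3% of them had a negative sign. Between single arrays of the clones the median difference, CD133+ minus CD133-, was 0.18 for replicates 1 and 0.16 for replicates 2. It was 0.32 for CD133+ replicate 2 against CD133- replicate 1, and 0.014 for CD133+ replicate 1 against CD133- replicate 2. The median deviation from the mean of the 4 arrays was 0.16 on CD133+ replicate 2 and -0.16 on CD133- replicate 1, and 0.013 and -0.002 on the other arrays of these clones. Between replicates the median difference, replicate 1 minus replicate 2, was -0.144 in CD133+ and -0.155 in CD133- cells, close in size to the difference between the clones. The zinc finger genes had deviations of -0.018 and -0.035 in CD133+ and of 0.053 and -0.009 in CD133- cells, and CD133- replicate 1 was their highest array where it was the lowest for the other chromosome 19 genes. ZNF genes of other chromosomes had 0.019 and -0.035, and 0.021 and -0.009, again highest on CD133- replicate 1. Over all genes CD133- replicate 1 was lowest (-0.052) and CD133+ replicate 2 highest (0.051). The part of array quality in these values was not tested.

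**Figure D2:**
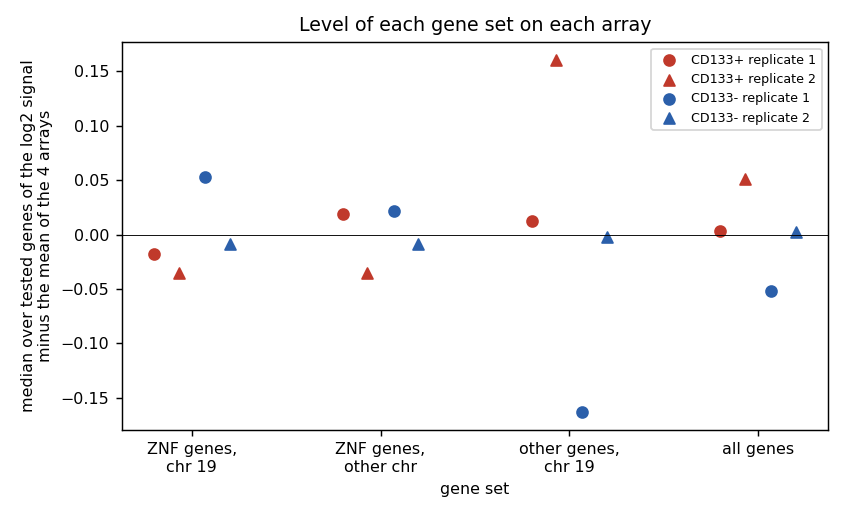
Median over the tested genes of each set (x axis) of the log2 signal minus the gene's mean over the 4 arrays (y axis), 1 marker for each array. The other genes of chromosome 19 spread from -0.16 on CD133- replicate 1 to 0.16 on CD133+ replicate 2, and the zinc finger genes stay between -0.035 and 0.053.

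ZNF529, which encodes a KRAB zinc finger protein, was the one gene of the family that was called. Its brightest probe set gave log2 signals of 6.13 and 6.62 in CD133+ cells, and of 7.79 and 7.36 in CD133- cells. Both CD133+ arrays lay below both CD133- arrays, and the gap between the groups was larger than the spread within either. CD133+ cells had a mean of 6.38 ± 0.35 (SD, n = 2). CD133- cells had a mean of 7.58 ± 0.30 (SD, n = 2). The difference was -1.20 (SE 0.23), or 2.30-fold lower in CD133+ cells, with a limma adjusted p of 0.0341. The range of this adjusted p over the alternatives was 0.00542 to 0.269. The call was lost without CD133- replicate 1 (difference -0.99, adjusted p = 0.172) and with the mean of the gene's 3 probe sets (-0.38, adjusted p = 0.269), and also when the variance was fitted without a trend on level. Its other probe sets, at mean log2 signals of 4.15 and 2.93, differed by 0.0032 and 0.050.

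**Figure D3:**
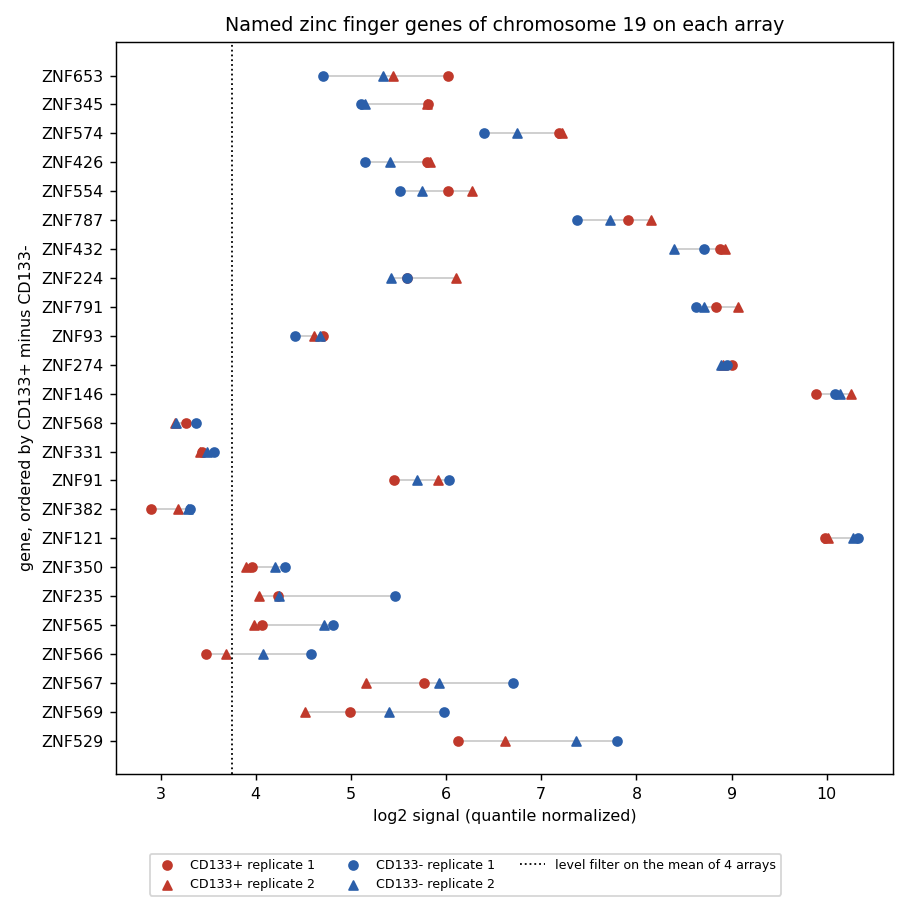
Log2 signal (x axis) of the 24 named zinc finger genes on each array, ordered by the difference between clones (y axis). Red markers are CD133+ and blue markers CD133- arrays, circles replicate 1 and triangles replicate 2, and the dotted line is the level of 3.75 applied to the mean. ZNF529 at the bottom has both red markers (6.13 and 6.62) left of both blue ones (7.36 and 7.79), while the markers of ZNF146, ZNF274 and ZNF91 are mixed.

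ZNF529 lies in a stretch of neighbours that holds the lowest differences of the family, those of ZNF529, ZNF569, ZNF567 and ZNF565. ZNF566 of this stretch was also low, but it entered the test only through CD133- cells and had to differ. Along the chromosome the 208 genes form 18 runs, a run being a row of members with at most 10 other protein-coding genes between one and the next, and 9 runs hold at least 5 tested genes. The run from ZNF565 to ZNF573 has 23 members, of which 17 were tested. In it 13 were negative and 4 positive, with a median of -0.24, 9 lower and 4 higher without overlap of the arrays (backgrounds 21.2% and 30.4%), and 6 lower and 1 higher at an unadjusted p under 0.05 (backgrounds 9.83% and 10.8%), or 5 lower when ZNF566 is left out for the filter. The 13 negative genes, the 9 without overlap and the median still include ZNF566. The other 9 of the 15 lower genes at that threshold were spread over the rest of the chromosome. The 5 tested genes of other kinds inside this run had a median of 0.18 and none at an unadjusted p under 0.05. Without CD133- replicate 1 the median of the run was -0.093, with 11 of 17 negative, and without CD133+ replicate 1 it was -0.43, with 12 of 17 negative.

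The other low members of the run are KRAB zinc finger genes next to or near ZNF529. ZNF565 gave log2 signals of 4.06 and 3.99 in CD133+ cells, and of 4.81 and 4.72 in CD133- cells. Replicates were close and the groups lay apart, with a difference of -0.74 (SE 0.17 and limma adjusted p = 0.0597). ZNF566 had 3.48 and 3.69 against 4.58 and 4.08, a difference of -0.75. Its CD133+ mean lay below the level filter, so the gene entered the test only through CD133- cells, and its test supports nothing. The difference was -0.49 without CD133- replicate 1. ZNF567 had 5.77 and 5.16 against 6.70 and 5.93. Its groups lay apart by less than the spread of either clone, the highest array being CD133- replicate 1, and the difference was -0.85 (SE 0.32 and limma adjusted p = 0.183). It was -0.46 without CD133- replicate 1, -0.55 without CD133+ replicate 2 and -0.25 for the mean of its probe sets. ZNF569 had 4.99 and 4.52 against 5.98 and 5.40. Again the groups did not overlap and CD133- replicate 1 was highest, with a difference of -0.94 (SE 0.27 and limma adjusted p = 0.106), or -0.53 for the mean of its probe sets. ZNF573, the last gene of the run, had 6.81 and 6.66 against 7.20 and 7.20, a difference of -0.47 (SE 0.17 and limma adjusted p = 0.179). None of these 5 genes had an adjusted p under 0.05 in this fit. The value of ZNF569 comes from a probe set whose name ends in _s_at, which can detect several transcripts or related genes. Its other probe set was also negative, at -0.12. For ZNF567 3 of 4 probe sets were negative.

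ZNF345, a zinc finger gene in the middle of the same run, went the other way. Its log2 signals were 5.81 and 5.80 in CD133+ cells, and 5.11 and 5.15 in CD133- cells. The replicates were nearly equal and the groups lay apart, with a difference of 0.67 (SE 0.20 and limma adjusted p = 0.118). The value comes from a probe set whose name ends in _x_at, which marks it as able to detect related sequences, and the gene's other probe set, at a mean of 3.58, was at -0.17. The mean of both gave 0.25. ZNF527 was at 0.46 and ZNF793 at 0.29 in this run, and neither passed at an unadjusted p under 0.05. The genes ZNF382, ZNF461, ZNF850, ZNF829, ZNF568 and ZNF781 of this run were below the level filter.

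**Figure D4:**
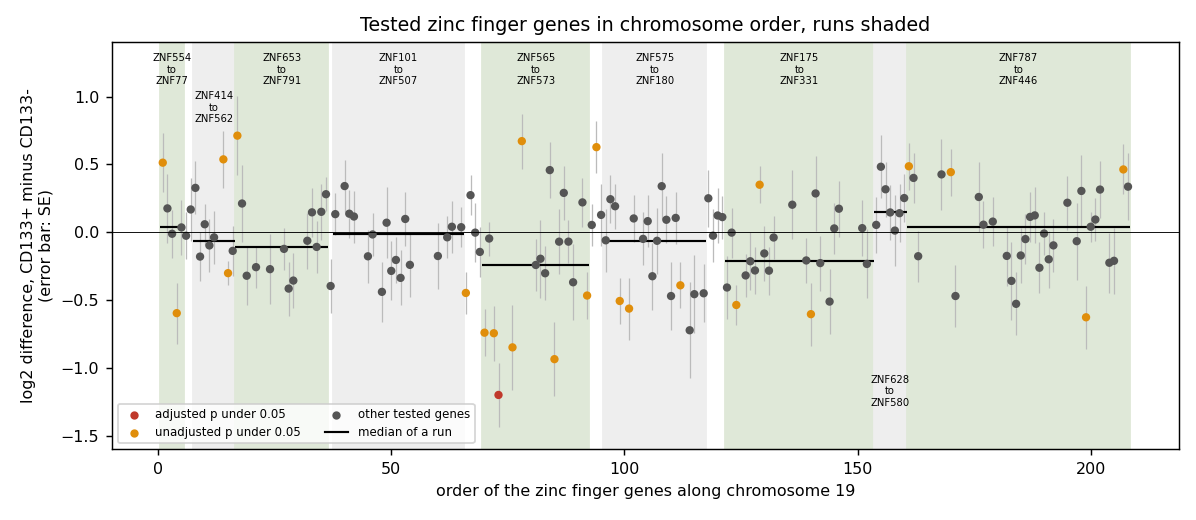
Log2 difference between clones with its SE (y axis) for the 150 tested zinc finger genes in their order along chromosome 19 (x axis), with runs of neighbours shaded and the median of each described run as a line. The run from ZNF565 to ZNF573 holds ZNF529 at -1.20 and has a median of -0.24, and the run from ZNF628 to ZNF580 has all 7 genes above 0.

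Several of these neighbours start back to back. Of the 182 zinc finger genes with a promoter sequence in RefSeq (GRCh38.p14), 250 bases before to 50 bases after the start, 6 pairs on opposite strands had windows that overlap, and 5 of the 6 lie in the run from ZNF565 to ZNF573. In 4 pairs 1 partner had an unadjusted p under 0.05 and the other had none or was not tested. The windows of ZNF529 and its partner ZNF382 share 155 bases and those of ZNF565 and ZNF146 share 121, and of these 4 pairs they are shown because they hold ZNF529, the called gene, and ZNF565, the other gene of the run with the lowest p. Each is written 5′ to 3′ along its own gene, with the shared bases in capitals.
ZNF529 (GRCh38.p14, chr19:36605208-36605507, minus strand): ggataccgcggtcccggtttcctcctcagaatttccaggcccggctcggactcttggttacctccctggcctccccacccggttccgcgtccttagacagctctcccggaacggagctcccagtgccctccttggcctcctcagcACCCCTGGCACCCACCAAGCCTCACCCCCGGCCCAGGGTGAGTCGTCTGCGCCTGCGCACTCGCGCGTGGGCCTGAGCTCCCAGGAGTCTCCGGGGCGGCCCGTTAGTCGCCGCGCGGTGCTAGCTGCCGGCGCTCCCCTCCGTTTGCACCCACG
ZNF382 (GRCh38.p14, chr19:36605063-36605362, plus strand): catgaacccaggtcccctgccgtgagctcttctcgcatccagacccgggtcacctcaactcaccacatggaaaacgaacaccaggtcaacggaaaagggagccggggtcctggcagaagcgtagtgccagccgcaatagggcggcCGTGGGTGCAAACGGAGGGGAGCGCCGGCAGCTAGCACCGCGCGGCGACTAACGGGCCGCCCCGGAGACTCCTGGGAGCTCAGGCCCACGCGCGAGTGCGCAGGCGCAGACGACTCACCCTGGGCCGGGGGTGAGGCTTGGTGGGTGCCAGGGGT
ZNF565 (GRCh38.p14, chr19:36215035-36215334, minus strand): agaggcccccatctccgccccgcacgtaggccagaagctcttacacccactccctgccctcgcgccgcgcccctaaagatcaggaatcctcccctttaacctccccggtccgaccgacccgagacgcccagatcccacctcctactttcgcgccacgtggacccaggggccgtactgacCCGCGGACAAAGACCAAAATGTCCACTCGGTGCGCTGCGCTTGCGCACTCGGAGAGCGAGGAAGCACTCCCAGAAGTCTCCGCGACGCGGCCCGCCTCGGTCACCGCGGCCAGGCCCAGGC
ZNF146 (GRCh38.p14, chr19:36214856-36215155, plus strand): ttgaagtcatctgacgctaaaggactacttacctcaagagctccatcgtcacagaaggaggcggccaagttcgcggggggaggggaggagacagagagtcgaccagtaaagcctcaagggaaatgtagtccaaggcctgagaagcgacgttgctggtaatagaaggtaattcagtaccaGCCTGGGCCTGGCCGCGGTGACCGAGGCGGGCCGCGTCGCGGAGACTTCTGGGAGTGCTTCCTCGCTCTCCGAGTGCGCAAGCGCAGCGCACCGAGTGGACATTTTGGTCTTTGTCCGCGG
The windows hold 28, 27, 32 and 24 CpG sites in this order, and the GC content is 70.0%, 68.0%, 67.7% and 59.0%.

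ZNF382, a KRAB repressor known for promoter methylation in carcinomas, gave log2 signals of 2.90 and 3.18 in CD133+ cells, and of 3.31 and 3.29 in CD133- cells, with a mean under the level filter and hence no test. ZNF146, whose protein consists almost wholly of zinc fingers, had 9.89 and 10.25 against 10.09 and 10.14. Its groups overlapped, with a difference of -0.047 (SE 0.13 and limma adjusted p = 0.863), beside -0.74 for ZNF565 across the shared stretch. ZNF569 and ZNF570 share 173 bases and were at -0.94 and -0.07. ZNF567 (-0.85) shares 196 bases with ZNF461, which was below the filter at a mean of 3.29. ZNF829 and ZNF568 share 140 bases and were both below the filter. Outside this run ZNF490 and ZNF791 share 206 bases and were at 0.15 and 0.28. In the 3 pairs with both partners tested the signs were equal. In each of them, however, a partner (ZNF146, ZNF570 and ZNF490) differed by less than its SE (0.13, 0.24 and 0.21). The sign of that partner is therefore not settled. Whether the differences within pairs exceed their error was not tested.

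Other genes lower in CD133+ cells were spread over the chromosome. The 9 genes outside the run with an unadjusted p under 0.05 had differences from -0.63 (ZNF329) to -0.30 (ZNF121) and limma adjusted p from 0.0967 to 0.239, so none was called. The value of 0.0967 belongs to ZNF649, which entered the test only through CD133- cells, and the next was 0.107. ZNF121 had the highest signal of the family, reading 9.98 and 10.01 in CD133+ cells, and 10.32 and 10.27 in CD133- cells. Its replicates differed by far less than the groups, and the difference was -0.30 (SE 0.088 and limma adjusted p = 0.107). ZNF235 had 4.24 and 4.03 against 5.47 and 4.25. Only CD133- replicate 1 was high there, and the difference of -0.72 (SE 0.35 and limma adjusted p = 0.290) was -0.11 without it. Without CD133- replicate 2 it was -1.33, with a limma adjusted p of 0.0285.

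The genes higher in CD133+ cells did not pass either. The 9 with an unadjusted p under 0.05 had differences from 0.35 (ZNF432) to 0.71 (ZNF653) and limma adjusted p from 0.118 to 0.232. ZNF574 gave log2 signals of 7.19 and 7.21 in CD133+ cells, and of 6.40 and 6.75 in CD133- cells. The groups lay apart, with a difference of 0.63 (SE 0.19 and limma adjusted p = 0.122). ZNF653 had 6.02 and 5.45 against 4.70 and 5.34. Its CD133+ replicate 2 and CD133- replicate 2 nearly met, the difference being 0.71 (SE 0.29 and limma adjusted p = 0.218), and its other probe set was at -0.25. The difference was 0.39 without CD133- replicate 1, 0.43 without CD133+ replicate 1 and 0.23 for the mean of its probe sets. ZNF426 had 5.80 and 5.83 against 5.15 and 5.41, a difference of 0.54 (SE 0.21). ZNF554 had 6.02 and 6.27 against 5.52 and 5.75, a difference of 0.51 (SE 0.22). That value comes from an _x_at probe set, and the gene's other probe set was at 0.25. ZNF787 had 7.91 and 8.15 against 7.38 and 7.72, a difference of 0.49 (SE 0.17). The limma adjusted p of these 3 lay at 0.203, 0.232 and 0.165, and in each the lowest array was CD133- replicate 1. Without that array ZNF787 was at 0.31, and for the mean of probe sets ZNF426 was at 0.31 and ZNF787 at 0.25.

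Among the 9 runs with at least 5 tested genes, the other 8 had medians closer to 0 in the fit with all arrays. The run from ZNF175 to ZNF331 had 14 of 20 tested genes negative and a median of -0.21. Its lowest was ZNF83 at -0.60, and ZNF432 at 0.35 was its highest. The median of this run was -0.047 with no filter on level (32 genes) and 0.029 over the 8 genes above the median level. Without CD133- replicate 1 it was -0.17, with 17 of 20 negative. The run from ZNF565 to ZNF573 was then closer to 0, at -0.093. The run from ZNF628 to ZNF580 had all 7 genes positive and a median of 0.15, none at an unadjusted p under 0.05, and with each array centred on its median 4 of the 7 were negative and the median was -0.0042. From ZNF787 to ZNF446, the longest run with 31 of 48 genes tested, 15 were negative and 16 positive with a median of 0.040. From ZNF101 to ZNF507, a run that spans the centromere, 17 of 28 were tested, with a median of -0.017 and none at an unadjusted p under 0.05. The runs from ZNF575 to ZNF180, ZNF653 to ZNF791, ZNF414 to ZNF562 and ZNF554 to ZNF77 had medians of -0.062, -0.11, -0.068 and 0.035. Each tested member was also paired with the next tested one along the chromosome, across untested genes and the borders of runs. Over these 149 pairs the signs were equal in 51.7%, and the differences correlated with r = 0.10. Over 982 pairs of other chromosome 19 genes these values were 64.5% and r = 0.057. The shares of equal signs cannot be set against each other, because 55.3% of the members and 24.3% of the other genes were negative. Genes that are mostly of 1 sign give more equal pairs in any order. Neighbours also share arrays and, within a run, similar sequence.

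None of the members named for a known role was called, and ZNF331, ZNF382 and ZNF568 among them were not tested. Over all genes 3.65% were called, so the lack of a call among so few genes says little. ZNF274, which binds the 3' ends of zinc finger genes and recruits SETDB1 there, gave log2 signals of 9.00 and 8.91 in CD133+ cells, and of 8.95 and 8.89 in CD133- cells. The groups overlapped, with a difference of 0.040 (SE 0.11 and limma adjusted p = 0.867), and the difference was below 0 with other scalings (-0.0405 with no normalization added, -0.12 after centring). ZNF91, which represses SVA retroelements, had 5.46 and 5.92 against 6.03 and 5.70, a difference of -0.18 (SE 0.25 and limma adjusted p = 0.724). ZNF93, which represses LINE elements, had 4.70 and 4.62 against 4.42 and 4.67, a difference of 0.12 (SE 0.19 and limma adjusted p = 0.770). In both genes the groups overlapped.

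ZNF350, a KRAB repressor that binds BRCA1, gave log2 signals of 3.96 and 3.90 in CD133+ cells, and of 4.30 and 4.20 in CD133- cells. The groups lay apart near the floor, with a difference of -0.32 (SE 0.16 and limma adjusted p = 0.306). ZNF224, a KRAB repressor of the aldolase A gene, had 5.59 and 6.10 against 5.59 and 5.42 and differed by 0.34 (SE 0.24 and limma adjusted p = 0.464), with CD133+ replicate 2 alone high and a difference of 0.082 without it. ZNF331, an imprinted gene, had 3.43 and 3.41 against 3.56 and 3.49, and ZNF568, whose mouse counterpart represses a placental transcript of Igf2, had 3.26 and 3.15 against 3.37 and 3.17. Both lay below the level filter and were not tested. The remaining genes of highest signal were ZNF791, at 8.84 and 9.07 against 8.63 and 8.71, and ZNF432, at 8.88 and 8.93 against 8.71 and 8.40. Their groups lay apart, with differences of 0.28 (SE 0.12 and limma adjusted p = 0.252) and 0.35 (SE 0.14 and limma adjusted p = 0.196), and all 3 probe sets of ZNF791 were positive.

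Probe sets of the same gene often differed. The 208 genes were covered by 401 probe sets, and 120 genes had more than 1. Of the 93 tested genes with several, 39 had 1 sign throughout and 54 had both signs. Probe sets whose names end in _s_at or _x_at, which can detect several transcripts or related genes, represented 50 of the 150 tested genes. Without them 130 zinc finger genes were tested, with a median of -0.049 and ZNF529 again the one called.

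The median promoter window of 300 bases held 21 CpG sites, against 22 over 15843 protein-coding genes and 24 over 176 ZNF genes of other chromosomes. At least 10 sites were present in 94.0% of the 182 windows, against 73.0% of protein-coding genes and 92.6% of the other ZNF genes. The letters CCGGAAG, the core of sites bound by ETS factors, were present on either strand in 77 of the 182 windows (42.3%), against 14.2% of protein-coding promoters, 10.7% of all 27305 promoters and 39.2% of 176 ZNF genes on other chromosomes. GGGCGG, the SP1 core, was present in 68.1%, against 58.5% of protein-coding promoters, 44.6% of all promoters and 60.8% of the other ZNF genes. CCAAT was present in 51.1%, against 36.4%, 35.7% and 44.3% of these sets, and TATAAA in 2.20%, against 9.63%, 12% and 4.55%. Both strands were searched for each, and matches of different motifs could overlap. The NRF1 site was in 3 windows (1.65%), against 1.75% of protein-coding promoters, 1.36% of all promoters and 3.41% of the other ZNF genes. Part of the ZNF143 site was in 2 windows (1.10%), against 0.372%, 0.256% and 1.70% of these sets. A match describes the letters alone. The windows of ZNF274 and ZNF787 are shown as members with several matches, with CCGGAAG and its complement in capitals.
ZNF274 (GRCh38.p14, chr19:58182811-58183110, plus strand): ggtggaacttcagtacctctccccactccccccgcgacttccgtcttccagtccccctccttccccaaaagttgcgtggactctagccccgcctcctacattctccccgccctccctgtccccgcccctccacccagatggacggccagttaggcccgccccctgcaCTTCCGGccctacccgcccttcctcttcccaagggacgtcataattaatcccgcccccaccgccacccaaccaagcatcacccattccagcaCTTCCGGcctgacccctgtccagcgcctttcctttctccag
ZNF787 (GRCh38.p14, chr19:56121246-56121545, minus strand): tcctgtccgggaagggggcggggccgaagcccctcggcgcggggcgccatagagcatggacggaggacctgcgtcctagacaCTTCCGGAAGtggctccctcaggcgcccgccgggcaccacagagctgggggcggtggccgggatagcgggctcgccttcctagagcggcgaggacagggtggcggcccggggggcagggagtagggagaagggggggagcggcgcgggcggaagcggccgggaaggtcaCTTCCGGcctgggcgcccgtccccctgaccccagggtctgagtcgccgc
The windows of ZNF529, ZNF565 and ZNF566 held no CCGGAAG, while those of ZNF567 and ZNF345 held 1 each.

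The partners through which KRAB proteins act gave 1 call. Of 20 genes of the TRIM28 pathway, histone and DNA methylation, all were tested, 1 was lower (background 2.34%) and none higher (background 1.31%), and the median difference was 0.027 against 0.058 over all genes. TRIM28 gave log2 signals of 9.94 and 10.27 in CD133+ cells, and of 9.97 and 10.30 in CD133- cells. The groups overlapped, with a difference of -0.030 (SE 0.14 and limma adjusted p = 0.929). SETDB1 had 7.98 and 7.82 against 7.81 and 7.91, also overlapping, with a difference of 0.038 (SE 0.14 and limma adjusted p = 0.906). DNMT1, the maintenance DNA methyltransferase, had 9.55 and 9.64 against 10.22 and 10.06. The CD133+ arrays were both lower, and the log2 difference was -0.54 (SE 0.10 and limma adjusted p = 0.0284), the adjusted p ranging from 0.00361 to 0.255 over the alternatives, with 0.139 without the trend of variance on level, 0.255 without CD133- replicate 1 and 0.0545 without CD133- replicate 2. The HP1 genes CBX3 and CBX5 were at 0.31 and 0.34 (limma adjusted p = 0.165 and 0.147) and CBX1 at 0.024 (adjusted p = 0.919).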

How the data were processed

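Total RNA of 4 samples was hybridised to Affymetrix arrays. The authors deposited 1 log2 signal per probe set and array, as the range of 2.52 to 14.57 shows. Affymetrix Expression Console is the one tool in the submitters' processing notes, and the correction, normalization and summarisation behind the values are not given in the sources used here. Because array medians spread by 0.144, the deposited values were quantile normalized after control probe sets were left out, which removes any difference in overall distribution. Of 54675 probe sets, 41091 named 1 gene in the platform annotation (19775 symbols); chromosomes, gene order and promoters came from RefSeq (GRCh38.p14), where all 208 members matched. Groups were compared with limma 3.58.1 (R 4.3.3), lmFit and eBayes with a trend of variance on level, over 15820 genes, with Benjamini-Hochberg adjustment over all of them; the script was tested on simulated data. An exact permutation test of 2 against 2 arrays cannot give a two-sided p below 0.333. The number of arrays limits the precision (median SE 0.20 over the tested members).

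The members, lists and the rule for named genes were chosen with earlier results of these data known. Named were every called member, the 6 highest and 6 lowest without overlap of the arrays, the 5 with the highest mean signal, and ZNF274, ZNF91, ZNF93, ZNF331, ZNF382, ZNF350, ZNF224 and ZNF568, and of the list of KRAB corepressors TRIM28, SETDB1 and each called gene. Others were chosen after their values were seen. Tables were made in Python 3.11.15 with pandas 2.3.3. Alternatives were other scalings, filters, variance models, probe-set choices, a block, a stricter threshold and leaving out each array.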

Additional observations from a re-analysis of the deposited data

How the results depend on the processing

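Centring the arrays moved the median over all genes from 0.058 to -0.051 and that of the zinc finger genes from -0.038 to -0.15, so that relative to all genes they stood at -0.0962 and -0.0966. Over only the genes above the median level their median was 0.040, against 0.034 over all genes, so the lower median was not seen there. ZNF529 was the one member called in the values as deposited, with centred arrays, with no filter, above the median level, with robust settings and without _s_at and _x_at probe sets. No member was called lower without the trend (0, where 12 genes in all were called), with the mean of probe sets (0, where 247 were) or at an adjusted p under 0.01 (0). Leaving out 1 array at a time gave 0 to 3 lower members, 0 higher, a median difference from -0.049 to -0.012 and a median size of difference from 0.149 to 0.307. It was CD133- replicate 1 whose removal gave 0 (with 122 genes in all) and CD133- replicate 2 whose removal gave 3 (ZNF235, ZNF529 and ZNF566). At an unadjusted p under 0.05, the 24 members (16.0%, all genes 20.6%) became 9 without CD133+ replicate 2 and 9 without CD133- replicate 1 (6.0% each, all genes 15.7% and 10.7%), while 24 lower and 13 higher were counted without CD133- replicate 2 (24.7%, all genes 21.4%). The corepressor list had 0 called without the trend, with the mean of probe sets, without _s_at and _x_at probe sets and at 0.01, and 0 to 2 with 1 array left out, 2 without CD133+ replicate 2 and 0 without either CD133- replicate. All these counts come from limma. DNMT1 has 1 probe set, an _s_at one, so it was not in the fit without such probe sets. The replicate numbers of the titles mark no stated pairing, and with 2 arrays a group their check (r = 0.43 between deviations of same-numbered arrays) is by construction equal for both numbers. With the replicate block 3027 genes were called, 6 members higher and 12 lower (among the lower ZNF529, ZNF565, ZNF566, ZNF567, ZNF569 and ZNF573), and 5 of the corepressor list. Signs of small differences turned: ZNF274 was -0.0405 as deposited, -0.12 centred, -0.0475 with the mean of probe sets and -0.14 without _s_at and _x_at probe sets; SETDB1 was -0.13, -0.21 and -0.0449 in the first 3 of these; ZNF146 was 0.0401 and ZNF91 0.0101 with the mean of probe sets; ZNF224 was -0.18 without _s_at and _x_at probe sets. With 1 array left out, ZNF146 ran from -0.23 to 0.13, ZNF274 from -0.0068 to 0.0869, ZNF91 from -0.41 to 0.0546, ZNF93 from -0.0139 to 0.24, TRIM28 from -0.20 to 0.14 and SETDB1 from -0.044 to 0.12. The causes of these changes were not tested. Signals near the floor limit the 58 members below the filter, and an array left out leaves a lone array assumed to vary like the other clone.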
